A study of Sus scrofa domesticus with 12 samples.

Results

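The 10 limbs of the series that carried a volumetric muscle loss (VML) injury were ordered by their transcript level of ACTA1, the skeletal α-actin of the contractile filament, and the 5 limbs with the most ACTA1 were set against the 5 with the least. These 10 libraries are all the injured libraries among 12, and the remaining 2 came from sham-operated limbs. The levels were measured by RNA-seq of whole PT (peroneus tertius) muscle, a muscle of the anterior lower hindlimb, from female Yorkshire Cross pigs 12 weeks post-injury. The sides were chosen by the measured ACTA1 level, so differences between them are given as a description of these 10 limbs, without a test.

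In every injured limb a block of the middle PT muscle had been cut out. The defect was left without implant in 2 non-repaired limbs, filled with a hyaluronic acid material (label HA) in 2 Hya-repaired limbs, and filled with decellularized extracellular matrix (ECM) in 6 ECM-repaired limbs, all of which are labelled SIS, a small intestine submucosa. The study also describes sequenced limbs that received a urinary bladder matrix (UBM), a material that no label names. It counts 3 SIS-repaired and 3 UBM-repaired limbs among those sequenced, the same total of 6. The ECM-repaired limbs therefore probably hold both materials. Which limb received which is not given, and they were kept as a single group. In the 2 sham-operated limbs the muscle was exposed and none was removed. Each library held 1 limb and no animals were pooled, but 2 libraries came from pig 017, of which the limb lettered L was non-repaired and the limb lettered R Hya-repaired. Where in the muscle the piece for RNA was taken, relative to the defect, is not given in the sources used here. Each repair was split equally by the ranking, with 3 ECM-repaired, 1 Hya-repaired and 1 non-repaired limb on each side.

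Skeletal muscle fibers are long multinucleated cells whose transcripts are dominated by contractile proteins and by the enzymes that feed them with ATP. Tissue that replaces fibers after a large defect holds fibroblasts, which lay down collagen, together with macrophages, vessels, nerve and fat. A piece of injured muscle is a mixture of both, and in whole-tissue RNA fewer cells of a type cannot be told apart from less RNA per cell.

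ACTA1 was at 21517, 15687, 14965, 11680.0 and 10911 TPM (the share of a transcript among all, scaled to a fixed total) on the more-ACTA1 side, which is in ranked order the Hya-repaired limb of pig 017, the non-repaired limb of pig 023 and the ECM-repaired limbs of pigs 024, 013 and 021. It was at 10572, 9599.9, 4918, 3141 and 2743 TPM on the less-ACTA1 side, in order the non-repaired limb of pig 017, the ECM-repaired limbs of pigs 022, 018 and 014, and the Hya-repaired limb of pig 016. All values by limb below follow this order. The sides averaged 14952 ± 4204 and 6195 ± 3661 TPM (SD, n = 5 each), against 47879 ± 3180.1 TPM in the sham-operated limbs (SD, n = 2), so that each injured limb lay below both sham-operated limbs. The cut fell between near neighbours, since the fifth limb exceeded the sixth by 3.20%. The widest step came lower down, where ACTA1 of the seventh limb was 1.95 times that of the eighth.

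The other genes of the fiber were ordered much like ACTA1, with the same uncertain middle. Of 137 genes besides ACTA1 in the table from 7 lists of muscle genes, 133 passed the filter of 1 TPM in all 5 limbs of a side, and 129 of these were higher on average on the more-ACTA1 side. The Hya-repaired limb of pig 017 was among the 5 highest limbs for 128 of these genes, and the Hya-repaired limb of pig 016 for 2. Limbs at the cut were less distinct, because the non-repaired limb of pig 017, on the less-ACTA1 side, was among the 5 highest for 84 genes and the ECM-repaired limb of pig 021, on the more-ACTA1 side, for 77. The label of the comparison thus held for muscle genes at the ends of the ranking and not for the pair of limbs at its centre. Genes of the muscle lists, ACTA1 included, held between 11.7 and 24% of the TPM of a limb on the more-ACTA1 side, between 3.77 and 11.5% on the less-ACTA1 side, and 43.5 and 45.8% in the sham-operated limbs.

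**Figure D1:**
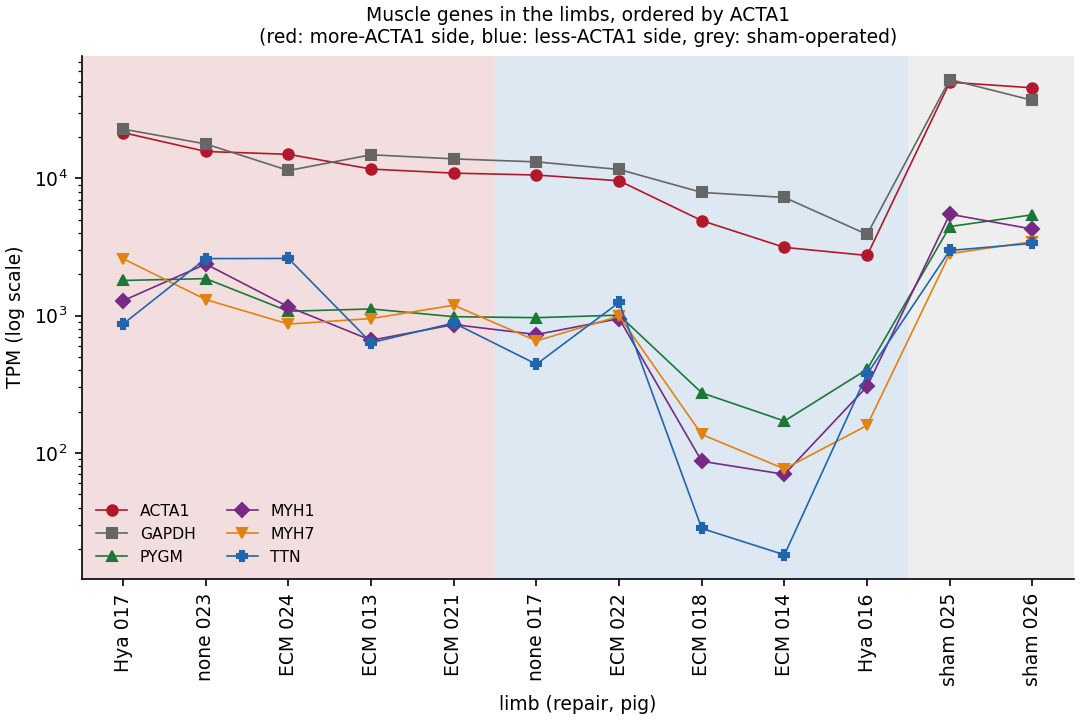
TPM (log axis) of 6 muscle genes in each limb, with the injured limbs in the order of ACTA1 and the sham-operated limbs at the right, 1 point per limb. TTN, MYH1 and MYH7 fall most steeply in the ECM-repaired limbs of pigs 018 and 014 and turn up again in the Hya-repaired limb of pig 016, which has the least ACTA1. The axis label none stands for non-repaired.

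The contractile lists were among the lists that differed most between the sides. Differences are means of log2(TPM + 0.5) on the more-ACTA1 side minus those on the less-ACTA1 side, a scale that understates the change of genes at low TPM. Over all 8262 genes past the filter the median difference was 0.05. The fast sarcomere list had a median difference of 1.40 over 12 genes. ACTA1 itself, which ranked the limbs and is higher by construction, is 1 of these 12. The slow sarcomere list had a median difference of 1.55 over 11 genes, and the list of titin, nebulin and Z-disc genes of 1.44 over 39. All genes of the fast and slow lists were higher on the more-ACTA1 side, and 38 of 39 in the third list.

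TTN, which encodes the elastic giant of the sarcomere, showed the largest difference of any muscle list gene, 2.97. Its values were 869, 2602, 2609, 636 and 884 TPM on the more-ACTA1 side and 443, 1248, 28.2, 18.1 and 375 TPM on the less-ACTA1 side, with 2982 and 3360.0 TPM in the sham-operated limbs. The sides of TTN overlapped, because the ECM-repaired limb of pig 022 exceeded 3 limbs of the more-ACTA1 side, and the low average of the less-ACTA1 side came from the ECM-repaired limbs of pigs 018 and 014. NEB, the ruler protein of the thin filament, had a difference of 2.31 with the same limbs lowest. The slow myosin heavy chain MYH7 differed by 2.32, with 1383 ± 701 against 403 ± 402 TPM (SD, n = 5 each), and the fast heavy chain MYH1 by 2.12. Several other genes of these lists differed less, with 1.44 for the fast troponin TNNT3, 1.20 for TNNI2 and 1.22 for the intermediate filament gene DES. The myosin light chain MYL3, at 1.96, and the slow troponin TNNT1, at 1.67, lay in between.

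Genes of excitation and of fuel use in the fiber were higher with ACTA1 by similar amounts. The list of calcium handling and excitation had a median of 1.41 over 16 genes, all of them higher on the more-ACTA1 side, and held RYR1, the calcium release channel, at 2.23 and the calcium pump ATP2A2 at 2.02. Glycolysis, glycogen and creatine kinase genes had a median of 1.30, with 27 of 27 higher. Of these PFKM, the muscle phosphofructokinase, was separate between the sides, at 375, 329, 224, 308 and 223 TPM against 221, 177, 73.0, 44.0 and 115 TPM. The insulin-regulated glucose transporter SLC2A4 differed by 2.09, the muscle glycogen phosphorylase PYGM by 1.55 and GAPDH by 0.96.

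Genes of the membrane and of the fiber nucleus differed less than the sarcomere. The sarcolemma and dystrophin list had a median of 0.79 over 11 genes, with 1.28 for α-sarcoglycan (SGCA) and 1.07 for dystrophin (DMD), whose mean was only 2.49 ± 1.14 and 0.969 ± 0.673 TPM (SD, n = 5 each). With the limbs ordered by CKM the median of this list was 0.37. The list of muscle transcription factors and atrophy genes had a median of 1.12, all 19 being higher on the more-ACTA1 side. The myogenic factor MYOD1 differed by 1.12 and MYF6 by 1.05, whereas FBXO40 and ASB11, subunits of ubiquitin ligases found in muscle, differed by 1.99 and 2.0.

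Outside the muscle lists, few genes kept the sides apart. A gene was called separate when its 5 values on one side all lay above its 5 values on the other. Of 8262 genes, 77 were separate with the more-ACTA1 side above, which is 0.932%, and 156 with the more-ACTA1 side below, which is 1.89%, or 2.82% in either direction. Of the 77 genes 1 is ACTA1 itself, which the ranking separates by construction, 15 were other genes of the muscle lists and 61 were on none, while none of the 156 was on a muscle list. The 77 genes that followed ACTA1, itself included, had a median difference of 1.10 and 43 of them differed by 2-fold or more, but of those that opposed it, with a median of -0.47, only 7 did. The split had 5 limbs a side and a cut between near neighbours, so ordering the limbs by creatine kinase (CKM), which exchanges the non-repaired limb of pig 017 for the ECM-repaired limb of pig 024, gave 134 and 117 separate genes, which by construction cannot be the same ones. With the cut at the widest step instead, 7 limbs against 3, which was chosen after the values were seen, 664 genes (8.03%) were separate with the 7 limbs above and 267 (3.23%) with them below, including 61 of the 77 and 75 of the 156.

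TPM are shares of a whole, so a limb with less muscle RNA can have higher TPM for other genes. Rescaling each limb to a common sum outside the muscle lists moved the median difference of all genes from 0.05 to 0.23, and with it the balance to 152 genes that followed and 45 that opposed ACTA1. Rescaling by trimmed means of log ratios moved the median to -0.05 and gave 92 and 157 genes. Separate on all 3 scales were 35 genes that followed and 14 that opposed ACTA1.

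The injured limbs were compared with the sham-operated limbs in a separate fit across all genes with limma, in which each repair weighed the same and had as many limbs on either side of the ranking. Of the 8262 genes, 51.7% rose and 7.56% fell in injured muscle at an adjusted p below 0.05, and after rescaling by trimmed means 29.9% rose and 27.7% fell. The filter looked only at the injured limbs. Genes present in sham-operated muscle but too low after injury could not enter, while genes nearly absent from sham-operated muscle could. With no filter on low values 4499 genes rose and 664 fell. Of the 77 genes that followed ACTA1, again with ACTA1 itself, 52 fell in injured muscle and none rose, and after rescaling 74 fell. Of the 156 that opposed ACTA1, 151 rose and none fell, and after rescaling 93 rose. The calls rest on 2 sham-operated limbs, and with either left out the remaining one gives no spread of its own. Of the 77 differences, 74 were negative with both sham-operated limbs, 73 without that of pig 025 and 75 without that of pig 026. All 156 were positive in each case.

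**Figure D2:**
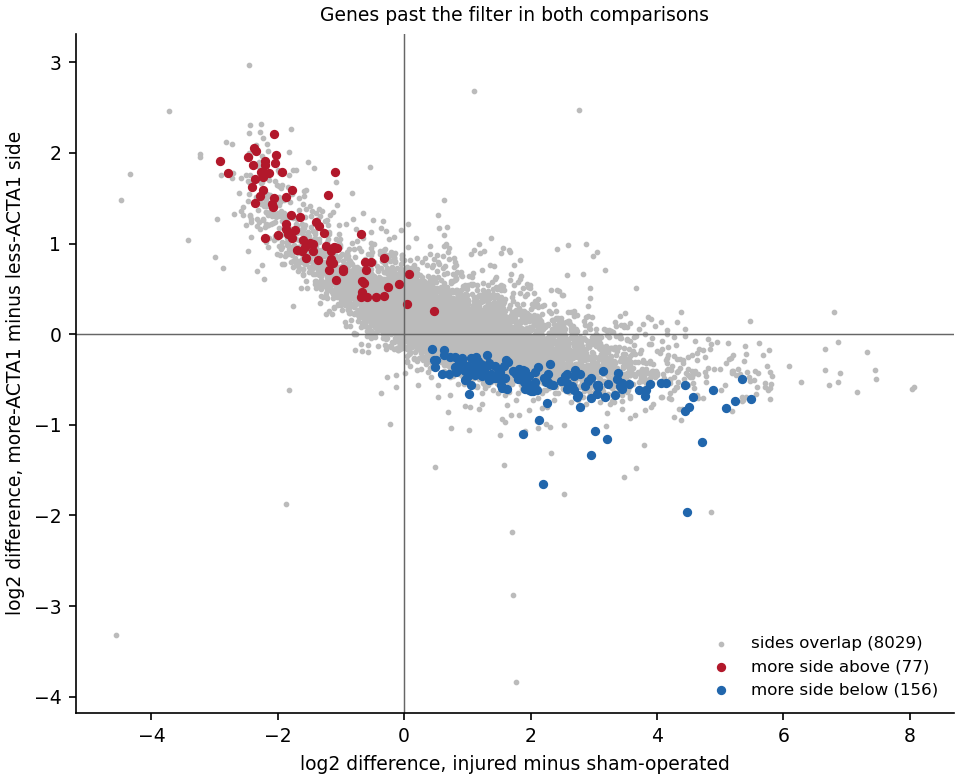
Each point is 1 of the 8262 genes, with its log2 difference between injured and sham-operated limbs (horizontal axis) and between the more-ACTA1 and less-ACTA1 sides (vertical axis). The 77 genes with the more-ACTA1 side above (red) lie left of 0 for 74 of the 77, and all 156 with the more-ACTA1 side below (blue) lie right of 0.

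Several of the separate genes outside the muscle lists with the largest differences in the direction of ACTA1 are themselves known from muscle fibers. By a rule on difference and abundance, 12 were named, and all 12 were lower in injured than in sham-operated muscle, before and after rescaling. These calls rest on 2 sham-operated limbs. All 12 differences stayed negative when 1 of the sham-operated limbs was left out, whichever it was. TPM2, the β-tropomyosin of the thin filament, was at 9559.6, 6483, 5935, 5609.5 and 5404 TPM on the more-ACTA1 side and at 4504, 3589, 1931, 1219 and 1500.3 TPM on the less-ACTA1 side, with 21761 and 18169 TPM in the sham-operated limbs. ANK1 encodes an ankyrin with a small form on the sarcoplasmic reticulum and was at 312, 282, 225, 186 and 191 TPM against 159.8, 170.3, 53.7, 34.2 and 50.0 TPM. MURF3, an older name of the muscle ubiquitin ligase TRIM54, differed by 1.51, TXLNB, a taxilin of striated muscle, by 1.79, and CAP2, an actin regulator, by 1.5. In these 5 genes the limbs on either side of the cut were close, and the ECM-repaired limb of pig 014 was lowest in each.

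The other 7 are less tied to the sarcomere. FGFR4, a receptor for fibroblast growth factors that myogenic cells express, had the largest difference, 1.89, and a clear step at the cut. It was at 24.3, 11.8, 19, 15.8 and 12.7 TPM on the more-ACTA1 side and 4.30, 6.17, 3.33, 1.5 and 6.83 TPM on the less-ACTA1 side, against 27.5 and 51.4 TPM in the sham-operated limbs. FGFR4 fell in injured muscle with a log2 difference of -2.04 ± 0.77 (SE, limma adjusted p = 0.038). PPP1R14C, an inhibitor of protein phosphatase 1, differed by 1.87, with 20.7, 26.3, 33.6, 16.3 and 15.6 TPM against 10.5, 14, 3.89, 1.71 and 4.71 TPM.

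ZNF106, a zinc finger protein, was at 108, 191, 173, 99.9 and 84.7 TPM against 74.7, 75.9, 24.2, 20.1 and 21.8 TPM, and at 507 and 481 TPM in the sham-operated limbs. Its fall in injured muscle was the steepest of the 12, with a log2 difference of -2.79 ± 0.75 (SE, limma adjusted p = 0.00752). The α-tubulin gene TUBA4A differed by 1.73, with 129, 96.5, 93.1, 89.5 and 107 TPM against 67.7, 49.3, 25.7, 18.8 and 15.8 TPM. SUCLA2, a subunit of succinyl-CoA synthetase in the TCA cycle, differed by 1.31, and UBE2D4, a ubiquitin-conjugating enzyme, by 1.15.

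Of the 12 genes, FGFR4, PPP1R14C, ZNF106, TUBA4A, MURF3, CAP2, PKIA and UBE2D4 were separate on all 3 scales. With the cut at 7 limbs against 3, 11 of the 12 were still separate and FGFR4 was not. For FGFR4 the Hya-repaired limb of pig 016 exceeded the non-repaired limb of pig 017 and the ECM-repaired limb of pig 022, both among the 7. Leaving out any 1 limb kept each of the 12 differences between 0.96 and 2.19. Ordering by CKM lowered the difference of FGFR4 to 1.08.

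**Figure D3:**
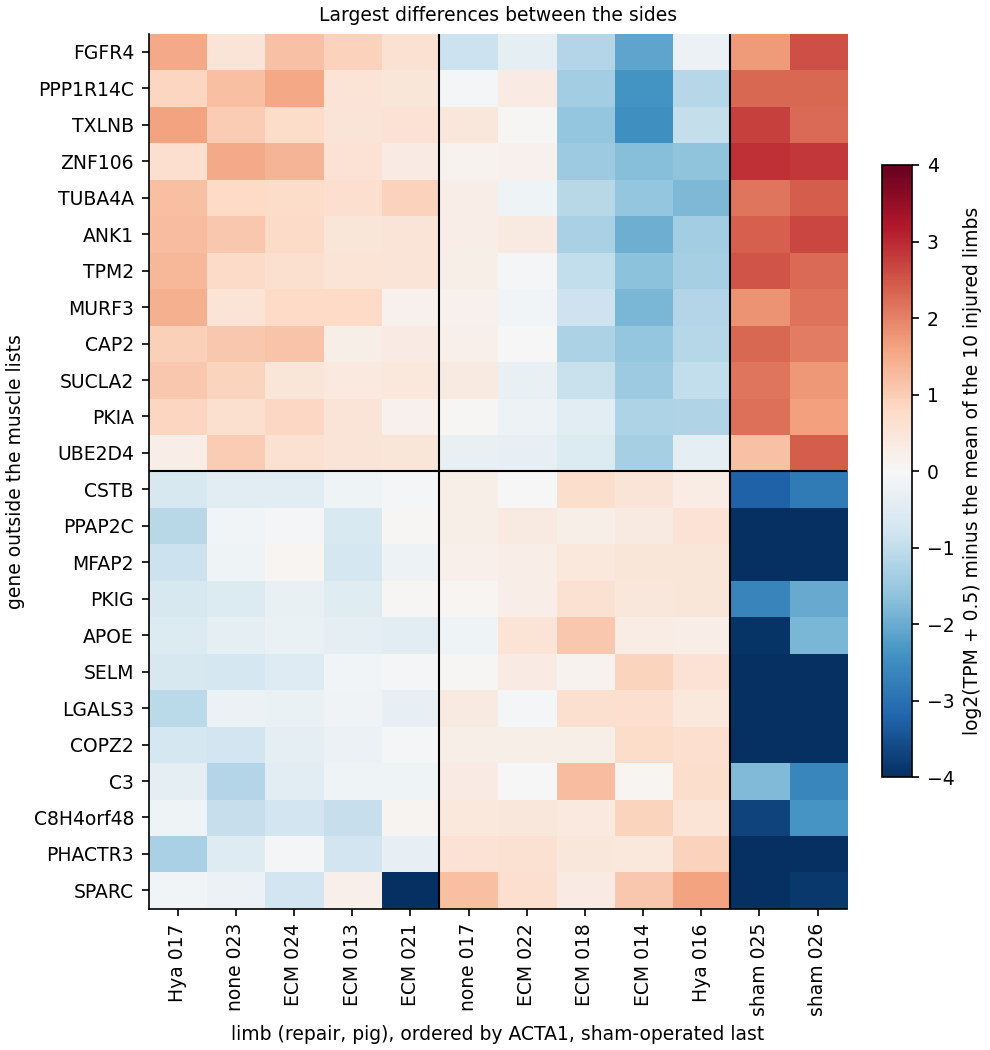
Log2(TPM + 0.5) of the 12 genes that followed (above the line) and the 12 that opposed ACTA1 (below), minus the mean of the 10 injured limbs, with limbs in the order of ACTA1 and sham-operated limbs last. Colors stop at 4 in either direction, and the sham-operated limbs lie beyond -4 for several opposing genes. The opposing genes differ far more between injured and sham-operated limbs than between the sides.

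Genes of mitochondria followed ACTA1 more weakly than the sarcomere did. The TCA cycle and fatty acid oxidation list had a median of 0.65 over 39 genes, of which 37 were higher on the more-ACTA1 side and 2 were separate. In injured muscle 27 of the 39 fell and none rose, a share well above the 7.56% of all genes. Citrate synthase (CS) differed by 0.79. The largest difference of the list, 1.62, was that of lipoprotein lipase (LPL), which frees fatty acids from circulating fat. LPL is not a mitochondrial enzyme and is also on the adipocyte list. LPL was at 130.1, 70.3, 68.9, 42.1 and 111 TPM on the more-ACTA1 side and at 55.1, 32.1, 25.2, 17.8 and 12.5 TPM on the less-ACTA1 side. Respiratory chain and ATP synthase genes had a median of 0.37, with 52 of 60 higher and differences from -0.57 to 1.13. NDUFB9 differed by 0.14, NDUFS1 by 1.03 and UQCRB by 1.13, all subunits of the chain. The proteasome list was even between the sides, with a median of 0.00 and 16 of 32 genes on each side of 0, although its member PSMD11 differed by 0.73.

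Among the lists of other cell types, the endothelial list had the largest median difference in the direction of ACTA1, but its summed TPM was alike on both sides. The sum had a median of 1372 TPM (952 to 2246) on the more-ACTA1 side and 1364 TPM (914 to 1548) on the less-ACTA1 side. The median difference of the list was 0.67 over 19 genes, with 0.57 and 0.86 on the other 2 scales, 14 of 19 genes were higher on the more-ACTA1 side, and none was separate. VEGFA, the main growth factor of vessels, which muscle fibers also make, was at 103, 95.2, 74.2, 32.1 and 78.7 TPM on the more-ACTA1 side and at 73.7, 41.0, 2.76, 3.23 and 19.5 TPM on the less-ACTA1 side, with 124 and 183 TPM in the sham-operated limbs. The ECM-repaired limbs of pigs 018 and 014 were far below all others, and the non-repaired limb of pig 017 and the ECM-repaired limb of pig 022 lay within the range of the more-ACTA1 side. VEGFA differed by 2.26, and its receptor FLT1 by 1.16.

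Genes that mark endothelial cells themselves differed less. FLT1 was at 27.3, 65.0, 58.7, 17.5 and 41.2 TPM against 27.7, 31.6, 7.48, 9.64 and 19.5 TPM, with the non-repaired limb of pig 023 and the ECM-repaired limb of pig 024 highest. The same 2 limbs were highest for PECAM1, an adhesion molecule of endothelial cells, at 163 ± 72.2 TPM against 101 ± 38.3 TPM (SD, n = 5 each), and for VWF, the von Willebrand factor, which differed by 0.87. CDH5, the cadherin of endothelial junctions, differed by 0.84. In injured against sham-operated muscle none of VEGFA, FLT1, PECAM1, VWF and CDH5 passed the test, with adjusted p between 0.185 for VEGFA and 0.793 for CDH5 in limma. After rescaling by trimmed means FLT1 fell with a log2 difference of -1.56 (limma adjusted p = 0.0282) and CDH5 with -0.96 (limma adjusted p = 0.0457).

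Immediate early genes, which cells switch on within minutes of a stimulus, had a median difference of 0.49 over 18 genes. ATF3 was at 52.5, 37.1, 21.6, 32.9 and 11.7 TPM against 31.4, 17.6, 5.25, 3.46 and 5.68 TPM, with the last 3 limbs of the ranking lowest, and differed by 1.56. JUN differed by 0.84 and FOS by 0.89. The median of this list turned to -0.16 when the limbs were ordered by CKM. Chaperones were nearly even at 0.13, with HSPA8, a constitutive chaperone, at 0.63 and DNAJB5, a co-chaperone, at 1.17.

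**Figure D4:**
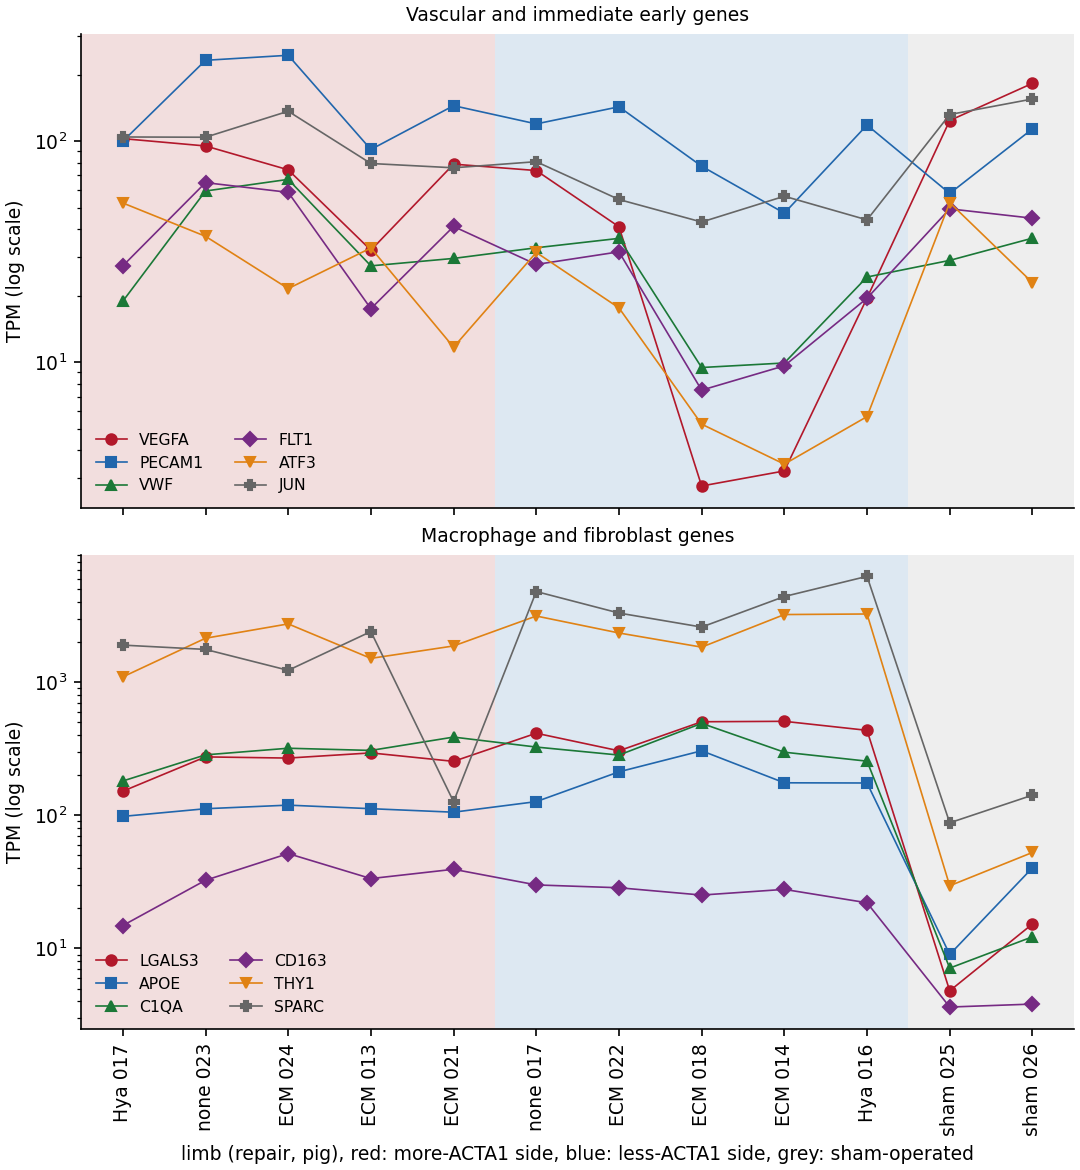
TPM (log axis) of vascular and immediate early genes (upper panel) and of macrophage and fibroblast genes (lower panel) in each limb, in the order of ACTA1, 1 point per limb. VEGFA, FLT1, VWF and ATF3 are lowest in the ECM-repaired limbs of pigs 018 and 014, while LGALS3 and APOE are higher in all 5 limbs of the less-ACTA1 side than in any of the more-ACTA1 side. SPARC is low in the ECM-repaired limb of pig 021 alone among the injured limbs.

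The rule named 12 genes that opposed ACTA1, and all 12 rose in injured muscle, with 11 of 12 calls kept after rescaling. All had passed a filter on the injured limbs alone, which favors genes that are high there. SPARC, a collagen-binding matrix protein, had the largest difference, -1.96, but 1 limb set its size. It was at 1904, 1768, 1231, 2408 and 127 TPM on the more-ACTA1 side and 4812, 3318, 2602, 4415 and 6259 TPM on the less-ACTA1 side, against 87.9 and 142 TPM in the sham-operated limbs. Without the ECM-repaired limb of pig 021, which was near the sham-operated level, the difference was -1.20, and ordering by the summed fast sarcomere TPM, which moves this limb to the lower side, gave 0.13. MFAP2, a protein of elastic microfibrils, opposed ACTA1 without such a limb, at 203, 332, 389, 229 and 325 TPM against 427, 444, 498, 515 and 523 TPM, and rose in injured muscle by 5.23 ± 0.48 on the log2 scale (SE, limma adjusted p = 4.25e-06).

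PHACTR3, a regulator of protein phosphatase 1 and actin, was at 8.55, 15.3, 20.7, 12.6 and 17.2 TPM against 32.6, 33.4, 30.2, 29.3 and 42.1 TPM, and below 1 TPM in both sham-operated limbs. C8H4orf48 was at 15.8, 9.13, 10.2, 9.13 and 19.2 TPM against 24, 24.2, 23.3, 33.5 and 25.9 TPM. Both were separate on all 3 scales, as were COPZ2, a subunit of the coat of transport vesicles, MFAP2 and PPAP2C, a lipid phosphate phosphatase, while the other 7 of the 12 were not. COPZ2 was at 324, 311, 399, 452 and 516 TPM against 628, 622, 621, 883 and 839.6 TPM, a difference of -0.85. SELM, a selenoprotein of the endoplasmic reticulum, was likewise lower with more ACTA1, at 300.4, 286, 322, 431 and 446 TPM against 479, 581, 516, 867 and 698 TPM.

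Both inhibitors of protein kinase A among the named genes were separate, in opposite directions. PKIA, the form typical of muscle, was at 152, 129.9, 148, 119 and 93.3 TPM on the more-ACTA1 side and 85.9, 71.9, 60.5, 34.9 and 35.4 TPM on the less-ACTA1 side, and fell in injured muscle with a log2 difference of -1.88 ± 0.54 (SE, limma adjusted p = 0.0104). PKIG was at 51.0, 54.7, 64.8, 56.1 and 82.8 TPM against 84.4, 96.1, 121, 108 and 111 TPM, and rose in injured muscle with a log2 difference of 2.25 ± 0.35 (SE, limma adjusted p = 1.77e-04).

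Macrophage genes were on the whole lower on the more-ACTA1 side, and unevenly so. The list had a median of -0.33 over 25 genes, -0.43 and -0.14 on the other 2 scales, with 21 genes lower and 2 of them, LGALS3 and APOE, separate. On the other 2 scales LGALS3 was not separate, and APOE was not after rescaling by trimmed means. In injured muscle all 25 rose, against 51.7% of all genes. LGALS3 (galectin-3), which activated macrophages secrete, was at 152, 275, 269.6, 295 and 255 TPM against 414, 306, 505, 509 and 436 TPM and differed by -0.81. APOE, the lipid carrier that macrophages release, was at 98.3, 112, 119, 112 and 106 TPM against 127, 213, 306, 176 and 175 TPM and differed by -0.80. The scavenger receptor CD163, a marker of resident and repair-type macrophages, went the other way, at 34.4 ± 13.3 against 26.7 ± 3.15 TPM (SD, n = 5 each), a difference of 0.26. C1QA, which encodes a chain of complement C1q made by macrophages, differed by -0.16, which turned to 0.03 after rescaling without the muscle lists, and the lysosomal marker CD68 by -0.41, both with the highest value in the ECM-repaired limb of pig 018.

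CSTB, an inhibitor of lysosomal cathepsins, opposed ACTA1 like LGALS3, at 173, 196, 195, 238 and 257 TPM against 316, 270.4, 432, 386 and 325 TPM. LGALS3, PKIG, MFAP2 and CSTB were the 4 of the 12 opposing genes that were also separate with 7 limbs against 3. Ordering by CKM brought the difference of CSTB to -0.42 and that of C8H4orf48 to -0.59. C3, the central component of complement, was at 30.7, 17.6, 29.3, 36.3 and 36.4 TPM against 51.7, 40.9, 96.7, 42.9 and 66.5 TPM, with the ECM-repaired limb of pig 018 highest. Its rise in injured muscle, 2.13 ± 0.47 on the log2 scale (SE, limma adjusted p = 0.00217), was lost after rescaling, at an adjusted p of 0.0582 in limma. The complement list as a whole was near even, with a median of -0.08 that turned to 0.11 after rescaling without the muscle lists.

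Collagen genes differed little between the sides. The fibrillar matrix list had a median of -0.24 on the TPM scale, -0.34 after rescaling by trimmed means and -0.04 after rescaling without the muscle lists. In the ECM-repaired limbs alone it was 0.07, but the median of all genes there was 0.18, so the list still lay below all genes. On the TPM scale 24 of 31 genes were lower on the more-ACTA1 side and 2 of 31, SPARC and MFAP2, were separate, against 1.89% of all genes, whereas 30 of 31 rose in injured muscle, against 51.7% of all genes. COL3A1, the chain of type III collagen, was at 20294, 33685, 33849.6, 42868 and 36420.5 TPM against 46138, 43735, 31209, 45556 and 53763 TPM, and at 571 and 780.1 TPM in the sham-operated limbs. The type I collagen gene COL1A2 differed by -0.35 and was lowest in the Hya-repaired limb of pig 017, at 13906 TPM. COL1A1 is listed at 0 in every limb. FN1 (fibronectin) differed by -0.22. Without the Hya-repaired limb of pig 017 the median of the list was -0.0066.

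**Figure D5:**
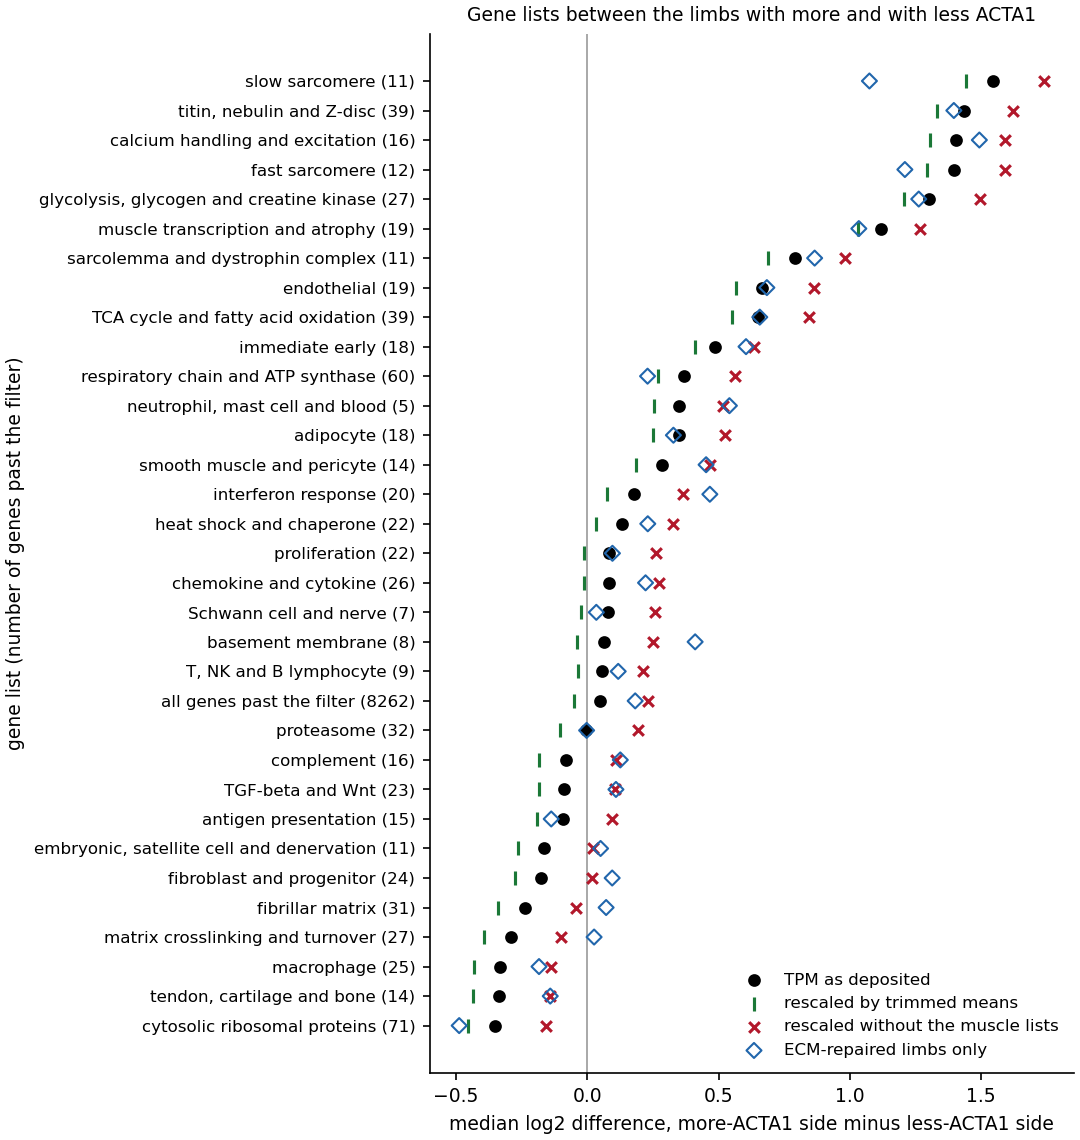
Median log2 difference between the sides for each gene list on 3 scales and within the ECM-repaired limbs, 1 row per list with the number of genes past the filter. The 7 muscle lists stand at the top, from 0.79 to 1.55 on the TPM scale, and the ribosomal protein list at the bottom, at -0.35. The row for all genes shows how far each scale is shifted.

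Enzymes that crosslink and turn over matrix had a median of -0.29 over 27 genes, which was 0.03 in the ECM-repaired limbs alone, against 0.18 for all genes there. The gelatinase MMP2 differed by -0.52, the metalloproteinase inhibitor TIMP1 by -0.49, the secreted protease HTRA1 by -0.59 and the crosslinking enzyme LOX by -0.04. Of the 27 genes 4 were higher on the more-ACTA1 side, and the largest difference in either direction was that of one of these, PCOLCE2, an enhancer of procollagen processing, at 0.89. Fibroblast genes had a median of -0.18, with 15 of 24 lower and 9 higher on the more-ACTA1 side, among them PDGFRA, a growth factor receptor of fibroblasts, at 0.18. The surface antigen THY1 differed by -0.59 and the mesenchymal factor TWIST2 by -0.87. The median of the list was 0.09 in the ECM-repaired limbs alone and 0.02 after rescaling without the muscle lists, against 0.18 and 0.23 for all genes. Tendon, cartilage and bone genes had a median of -0.34. The tendon marker TNMD was at 76.4, 219, 383, 68.1 and 94.3 TPM against 105, 204, 434, 102 and 514 TPM, so that high and low limbs stood on both sides, and the cartilage matrix gene COMP differed by -0.56.

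Genes of TGF-β and Wnt signaling did not share a direction, with a median of -0.09, or 0.10 after rescaling without the muscle lists, and 14 of 23 lower on the more-ACTA1 side. TGFB1, the ligand, differed by -0.29, and rose in injured muscle with a log2 difference of 2.79 ± 0.37 (SE, limma adjusted p = 5.41e-05). FRZB, a secreted Wnt antagonist, was higher on the more-ACTA1 side by 0.70, with 28.6 ± 10.4 against 20.3 ± 15.2 TPM (SD, n = 5 each), and fell in injured muscle with a log2 difference of -1.67 ± 0.48 (SE, limma adjusted p = 0.0102).

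By median difference, cytosolic ribosomal proteins formed the list most opposed to ACTA1. All 71 genes past the filter were lower on average on the more-ACTA1 side, none was separate, and the median was -0.35, -0.46 after rescaling by trimmed means and -0.16 after rescaling without the muscle lists. RPL3 was at 585, 796, 692, 789 and 940.1 TPM against 706, 1009, 1251, 1140.5 and 1022 TPM, and RPL4 differed by -0.21. The ECM-repaired limbs of pigs 018 and 014 had the highest summed TPM of the list, 212687 and 190667 TPM. The other limbs of the less-ACTA1 side, at 116659, 135902 and 129586 TPM, lay in or just above the 112192 to 135697 TPM of the more-ACTA1 side. The limbs of pigs 018 and 014 were also the lowest for TTN, VEGFA and FLT1, and the cause was not tested. In injured muscle 50 of the 71 genes rose, against 51.7% of all genes, but only 1 did after rescaling by trimmed means, against 29.9% of all genes. The largest difference, -3.32 for RPS3, came from values of 1.73, 1.81, 1.06, 159.7 and 1.77 TPM against 5.94, 1.99, 244, 200.4 and 362 TPM, which jump between limbs within each side. RPL14 jumped in the same way in the ECM-repaired limb of pig 013, at 59.0 TPM. Ribosomal protein genes have many near-identical copies between which reads can be split, so single values of these genes are uncertain.

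The lists of lymphocytes, antigen presentation, chemokines, interferon response, proliferation, basement membrane, nerve, and embryonic, satellite cell and denervation genes had medians between -0.17 and 0.18, near the 0.05 of all genes, although that of nerve turned to -0.49 when the limbs were ordered by CKM. Single members differed more. CHODL, a membrane lectin, was at 9.24, 19.2, 90.6, 6.91 and 16.2 TPM against 24.2, 48.1, 39.4, 53.3 and 78.8 TPM, with the ECM-repaired limb of pig 024 above every limb of the less-ACTA1 side. CDH15, the cadherin of satellite cells and young fibers, differed by 1.19. The lymph vessel chemokine CCL21 was at 154, 79.2, 179.7, 162 and 149 TPM against 156, 264, 375, 224 and 273 TPM, and CCL2, which recruits monocytes, differed by -0.22.

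Lymphocyte genes were at low TPM. Their sum was highest in the ECM-repaired limb of pig 018, at 177 TPM, and next in that of pig 024, at 116 TPM. CD3E, a chain of the T cell receptor complex, was at 1.25, 2.34, 4.26, 4.73 and 2.83 TPM against 2.12, 1.22, 12.2, 2.45 and 2.13 TPM, with the ECM-repaired limb of pig 018 highest. JCHAIN, which joins antibody units in plasma cells, was at 5.31, 4.55, 27.7, 21.4 and 6.21 TPM against 7.37, 3.83, 24.6, 7.03 and 3.05 TPM, with the ECM-repaired limb of pig 024 highest. NKG7, of cytotoxic granules, differed by -0.41. IL33, an alarmin of stromal cells, was at 5.52, 36.7, 35.0, 5.98 and 11.4 TPM against 13.7, 9.57, 5.79, 4.42 and 4.74 TPM, highest in the non-repaired limb of pig 023 and the ECM-repaired limb of pig 024, the limbs that were also highest for PECAM1. The pig histocompatibility genes SLA-1 and SLA-DRB1 jumped between limbs, SLA-1 from 1.01 to 144 TPM, and these genes are variable between animals and have close copies, so their differences are uncertain. The proliferation gene TOP2A differed by 0.41 and the Schwann cell gene S100B by -0.32.

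Smooth muscle and pericyte genes had a median of 0.28, and adipocyte genes of 0.35 over 18 genes, as had the list of neutrophil, mast cell and blood genes, of which only 5 passed the filter. ACTA2, the smooth muscle actin of vessel walls and myofibroblasts, was even at 288 ± 92.6 against 268 ± 69.8 TPM (SD, n = 5 each). SYNPO2, an actin-bundling protein that skeletal muscle also expresses at the Z-disc, was the separate gene of this list, at 132, 135, 144, 91.8 and 71.8 TPM against 57.7, 69.4, 23.8, 14.8 and 23.2 TPM, and it fell in injured muscle with a log2 difference of -2.14 ± 0.78 (SE, limma adjusted p = 0.0308).

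Whether the amount of ACTA1 went with the repair or with the limb was tested on labels the ranking did not use. ECM-repaired limbs averaged 9203 ± 4416 TPM (SD, n = 6) and the other injured limbs 12630.0 ± 7965 TPM (SD, n = 4). The difference in log2(TPM + 0.5) was -0.30, with p = 0.648 and an adjusted p of 0.648 in a two-sided exact permutation test over 210 splits, and it turned to 0.30 without pig 017. Limbs lettered L averaged 7903 ± 3867 TPM and limbs lettered R 13244 ± 6799 TPM (SD, n = 5 each), with 4 of the 5 limbs lettered L on the less-ACTA1 side. This difference was -0.69, with p = 0.286 and an adjusted p of 0.571 in the same exact test over 252 splits. Neither passed the threshold, and at these group sizes the test does not show that the groups were alike.

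With ACTA1 of each limb as a covariate, ECM-repaired limbs were compared with the other injured limbs across 8261 genes. No gene passed an adjusted p of 0.05 in limma, which is 0% of those tested, and 167 had an unadjusted p below 0.05. Without the covariate the counts were 0 and 95, and the median SE of a difference was 0.24 with it and 0.26 without it. In a check with known changes in 100 genes, the fit with the covariate recovered 29% at a log2 change of 1 and 82% at 2. The lack of calls therefore does not show that the repairs were alike.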

How the data were processed

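The deposited values are TPM, which the authors made from 76-base paired-end TruSeq reads with kallisto, against a pig build named only in the study's methods. Per library the 11506 deposited genes sum to 71.5 to 82.7% of a complete TPM total. Genes at 0 in all libraries (239) did not pass the filter, and 618 of 1833 LOC names were given a symbol. The 21 names turned into dates were left out only of the genes named singly. Those that passed the filter stayed in all counts. TPM keep no depth, so the depth of a library is not known, and precision comes from how many limbs there are. P-values measure the spread between limbs.

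The 10 injured libraries were ranked by ACTA1 and genes with 1 TPM or more in all 5 libraries of a side were kept. Values were log2(TPM + 0.5), without further scaling. The members, the 32 gene lists and the tests were chosen with earlier results of these data known. Injured groups against sham, and ECM-repaired against other injured limbs with ACTA1 as covariate, were fitted with limma 3.58.1 in R 4.3.3 (trend and robust estimation, Benjamini-Hochberg adjustment over all genes, threshold 0.05). ACTA1 was compared between labels by exact permutation, adjusted over both tests.

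Named were ACTA1, the 12 largest and 12 smallest differences among separate genes outside the muscle lists with a mean of at least 10 TPM in injured limbs and a symbol, up to 6 genes separate against the direction of their injured-sham call (there were none), and of each list the first 3 members and the 2 largest absolute differences. Some genes that this rule names are not described singly and enter the text only with the counts and medians of their lists. The alternatives were 2 rescalings, pseudocounts of 0.1 and 1, no filter and a filter of 5 TPM, other rankings, another cut, limma without trend, and limbs or pigs left out. DESeq2 and edgeR were not run, because they need counts.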

Additional observations from a re-analysis of the deposited data

Results flagged for a closer look

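In groups of 4 to 10 limbs, a value was looked at again when its distance to the nearest limb took up an unusually large part of the group's range. Of 411 groups of values checked, over 137 quantities each in the ECM-repaired limbs and on both sides, 24 were found. This is near the 1 in 20 that chance alone gives. The values below are therefore listed and not read as traits of a limb. The groups share limbs, and no cause was tested.

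Several of these values belong to the ECM-repaired limb of pig 018. Its macrophage genes summed to 3848 TPM, against 2266 to 2731 TPM in the other ECM-repaired limbs and 2381 to 2731 TPM in the other limbs of the less-ACTA1 side. On that side it was also high for the lymphocyte sum (177 TPM), the antigen presentation sum (3686 TPM), CD68 (80.3 TPM) and CD3E (12.2 TPM), and among the ECM-repaired limbs for C3 (96.7 TPM) and NKG7 (28.4 TPM).

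Others belong to the Hya-repaired limb of pig 017, all within the more-ACTA1 side. It was low for the fibrillar matrix sum, 50872 TPM against 89165 to 98103 TPM, for COL1A2 (13906 TPM), LGALS3 (152 TPM) and SLA-1 (1.20 TPM). It was high for CACNG1, a calcium channel subunit of muscle (123 TPM), and for the sum of neutrophil, mast cell and blood genes (393 TPM).

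The remaining values are of single genes. PDGFRA was 19.7 TPM in the ECM-repaired limb of pig 022, high on the less-ACTA1 side. SPARC was 127 TPM in the ECM-repaired limb of pig 021, low both among the ECM-repaired limbs and on the more-ACTA1 side. UBE2D4 was 10.5 TPM in the ECM-repaired limb of pig 014, low on the less-ACTA1 side. In the ECM-repaired limb of pig 013, RPL14 was 59.0 TPM, low in both of its groups, VEGFA was 32.1 TPM, low on the more-ACTA1 side, and RPS3 was 159.7 TPM, high there. CCL21 was 79.2 TPM in the non-repaired limb of pig 023, low on the more-ACTA1 side, and SLA-DRB1 was 0.88 TPM in the ECM-repaired limb of pig 022, low among the ECM-repaired limbs.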

How the results depend on the processing

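The number of separate genes depended most on which limbs were compared. The counts with the more-ACTA1 side above and below were 77 and 156 with all limbs, 152 and 45 after rescaling without the muscle lists, 588 and 384 in the ECM-repaired limbs alone, 493 and 315 without pig 017, 549 and 435 without the middle 2 limbs, and 664 and 267 for 7 limbs against 3. Fewer limbs leave more genes separate by construction. Above, the count was 134 with limbs ranked by CKM and 143 by the fast sarcomere sum, and below, 320 without pigs 014 and 018, both left out after their values were seen. Leaving out 1 limb gave 79 to 463 and 162 to 308, the highest without the non-repaired limb of pig 017. The proteasome median was -0.10 and 0.19 on the other scales. Ranking by CKM gave medians of 0.37 for the sarcolemma list, -0.49 for Schwann cell and nerve, and -0.16 for immediate early genes, and the fast sarcomere ranking gave 0.13 for SPARC. Of 736 list medians under other settings, 731 moved by less than the spread between limbs. Injured against sham called 2470 higher and 2285 lower after rescaling by trimmed means, and 2516 to 4492 and 102 to 834 with 1 limb left out, the fewest lower without the sham-operated limb of pig 025 (102) or pig 026 (160), where the lone one left is assumed to vary like the other groups. Rescaling turned the injured-sham differences of RPL4 to -0.11, RPL14 to -0.075, PCOLCE2 to -0.32, JCHAIN to -0.30 and PECAM1 to -0.18, that of VWF was 0.0095 without pig 017, and that of CDH5 ran from -0.53 to 0.20 with 1 limb left out. ECM-repaired against other injured limbs with ACTA1 as covariate called 2 genes, ATOX1 and PPIB, without pig 017 and 0 to 1 with 1 limb left out. The ACTA1 difference by repair was 0.30 without pig 017, and -0.92 to 0.075 with 1 limb left out, turning without the Hya-repaired limb of pig 017. The cause was not tested. No paired analysis was possible because the samples compared in a test share at most 1 animal, pig 017, whose 2 limbs were left out as an alternative.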

Other observations

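Pig 017 gave the limb with the most ACTA1, Hya-repaired, and the sixth in the order, non-repaired, so that the 2 limbs of 1 animal stood on opposite sides. These are single limbs without replicate error. ACTA1 was 21517 TPM in the Hya-repaired and 10572 TPM in the non-repaired limb, and MYH7 was 2597 and 655 TPM. COL3A1 was 20294 and 46138 TPM, THY1 1099 and 3150.4 TPM, and LGALS3 152 and 414 TPM, in each case with the non-repaired limb higher. VEGFA was 103 and 73.7 TPM, and PECAM1 99.9 and 119.7 TPM.

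The fuel switch gene PDK4, which encodes a kinase that shuts off pyruvate dehydrogenase, varied more between limbs than any other named gene of the TCA cycle and fatty acid oxidation list and did not follow the ranking closely. It was at 70.2, 4.56, 18.5, 16.9 and 5.02 TPM on the more-ACTA1 side and 25.8, 3.41, 6.99, 1.79 and 0.892 TPM on the less-ACTA1 side, with 19.4 and 64.2 TPM in the sham-operated limbs. Both limbs of pig 017 were the highest injured limbs.

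With the cut at the widest step, 7 limbs against 3, which was chosen after the values were seen, 101 of the 133 muscle list genes besides ACTA1 were separate with the 7 limbs above, against 8.03% of all genes, where 15 were with 5 against 5, against 0.932%. Their median difference was 1.69 in place of 1.30. The endothelial median was then 0.80 and the ribosomal protein median -0.51, with 6 of the 71 ribosomal protein genes separate with the 7 limbs below, against 3.23% of all genes.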
